A study of Mus musculus with 71 samples.

Results

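Night was compared with day in the hippocampus of chow-fed mice that stayed in the home cage (HC). The comparison held 12 of the 71 mice, 6 killed at zt15 (HC zt15) and 6 at zt3 (HC zt3), and the 17601 protein-coding genes that had at least 10 counts in total, out of 30141 genes tested and 57010 genes counted. Within the 12 libraries alone, 16504 of these 17601 genes reached 10 counts. Both groups were wild-type (WT) male C57BL/6J mice, given normal chow ad libitum (NC ad lib) from weaning on, held in cages of 6 under alternating light and dark phases of 12 h each and never trained. Zeitgeber time (zt) counts hours from lights on, so zt3 lies early in the light phase, when mice mostly rest, and zt15 early in the dark phase, when they are awake and feed. Messenger RNA was recovered by pS6-TRAP, an immunoprecipitation of ribosomes with an antibody against phosphorylated ribosomal protein S6, followed by sequencing. The values therefore describe messages on ribosomes that carry this mark, which active cells carry more of, and fewer cells of a type and less message per cell cannot be told apart. The study ran the HC zt3 mice in its first experiment and the HC zt15 mice in its second, so for every value of this comparison the time of day cannot be told apart from the experiment. A further 3 comparisons came from the same pair of experiments and are used for reference: the 12 HC mice on a high-fat and sucrose diet ad libitum (HFS ad lib), the 11 HC mice on that diet with time-restricted feeding (HFS TRF), and 12 trained NC ad lib mice, killed 1 h (ORM+1 h, daytime) or 12 h (ORM+12 h, night) after an object recognition memory task.

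The circadian clock of each cell is a loop of transcription factors. BMAL1 pairs with CLOCK or NPAS2 and, through E-boxes, drives the Per and Cry genes, Ciart, the Rev-erb receptors Nr1d1 and Nr1d2 and the proline and acidic amino acid-rich (PAR) factors Dbp, Tef and Hlf. PER and CRY proteins then hold BMAL1 back, Rev-erb receptors repress and Ror receptors activate Bmal1 and Npas2 at a half-site of their own, and the PAR factors act at D-boxes. In most mouse tissues Bmal1 and Npas2 messages are high around the start of the light phase and Per and Dbp messages around its end, while in nocturnal rodents corticosterone peaks around the start of the dark phase.

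Promoter windows of 18 of the 21 clock genes examined were found in RefSeq (build GRCm38.p6), each running from 250 bases before to 50 bases after an annotated start. The E-box CACGTG, its own reverse complement, was in a window of 5 of these genes, against 8.09% of all 27025 genes with a window (7.15% of all 32851 windows). The D-box TTATGTAA, searched on both strands, was in a window of 1 gene, Per3, against 1.11% of all genes (0.938% of windows), and the half-site AGGTCA, also on both strands, was in windows of 5 genes, against 18.1% of all genes (16.3% of windows). A match is a description of these letters and no evidence of binding. Stretches of 120 bases are shown for 5 clock genes that rose at night, as examples of windows that hold a motif searched here, with the match in capitals. Ciart is shown from 150 to 31 bases before the start with 3 E-boxes, and Cry1 over the same positions with 1 E-box. Tef is shown from 200 to 81 bases before the start with 1 E-box, and Per3 from 250 to 131 bases before the start with 2 D-boxes. Nr1d2, named above as driven through E-boxes, is shown from 150 to 31 bases before the start with 1 half-site. The window of Bmal1, which fell at night, also held a half-site, after the start, and is not shown.
Ciart (chr3:95882259-95882378, minus strand): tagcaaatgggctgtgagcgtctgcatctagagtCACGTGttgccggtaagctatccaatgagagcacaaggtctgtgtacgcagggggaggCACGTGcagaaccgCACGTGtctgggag
Cry1 (chr10:85185085-85185204, minus strand): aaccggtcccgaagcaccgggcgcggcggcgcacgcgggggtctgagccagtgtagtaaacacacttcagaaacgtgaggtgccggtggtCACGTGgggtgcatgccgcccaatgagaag
Tef (chr15:81802473-81802592, plus strand): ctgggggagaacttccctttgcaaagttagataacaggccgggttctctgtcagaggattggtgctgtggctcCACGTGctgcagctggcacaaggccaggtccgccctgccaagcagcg
Per3 (chr4:151044796-151044915, minus strand): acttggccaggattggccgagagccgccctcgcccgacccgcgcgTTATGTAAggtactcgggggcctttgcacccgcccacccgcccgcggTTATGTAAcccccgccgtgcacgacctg
Nr1d2 (chr14:18239137-18239256, minus strand): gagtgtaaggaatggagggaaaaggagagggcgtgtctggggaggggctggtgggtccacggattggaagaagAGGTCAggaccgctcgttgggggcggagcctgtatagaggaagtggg

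The HC zt3 libraries held 48891465 to 57592415 counts and the HC zt15 libraries 34698914 to 56879224, the lowest being HC zt15 replicate 4. HC zt15 replicate 5 stood apart from the other night mice: the summed level of 8 astrocyte markers was 1474 CPM (counts scaled to a common library size) in it, 2681 to 4290 CPM in the other 5 night mice and 1251 to 1753 CPM in the day mice. The summed level of 10 choroid plexus markers varied from 223 to 3104 CPM at zt3 and from 518 to 16460 CPM at zt15, with HC zt15 replicates 2 and 6 highest, although none of the 10 markers passed the test. For several gene lists below the number called without replicate 5, or without replicates 2 and 6, stands beside the number with all 12 mice.

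At an adjusted p below 0.05 (edgeR's quasi-likelihood test, Benjamini-Hochberg adjustment over all 30141 genes), 2008 of the 17601 protein-coding genes, or 11.4%, were differentially expressed (DEG) between HC zt15 and HC zt3. Higher levels at night were seen for 1423 genes (8.08%) and lower levels for 585 (3.32%), and 1637 genes (9.3%) also passed a fold of 1.2. With protein-coding genes alone in the normalisation and the test, 56.9% of the DEG were higher at night, against 70.9% here. The median log2 fold change over all 17601 genes was 0.03. Among the DEG it was 0.56 for those higher at night and -0.30 for those lower, and 381 DEG changed more than 2-fold, 309 of them upwards. The 6 night mice lay wholly above or below the 6 day mice for 716 genes (4.07%), above for 416 (2.36%) and below for 300 (1.7%). The share of genes called depended on the level. Of 5 equal bins of mean CPM, the lowest held 0.54% higher and 1.19% lower genes, the middle 13% and 2.67%, and the highest 8.47% and 6.59%.

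The clock genes that changed were lower at night in the activating arm and higher in the repressing arm, among the nuclear receptors and among the output factors. Of the 21 clock genes examined, 13 (61.9%) were DEG, 11 higher and 2 lower at night, against 11.4% of all protein-coding genes. Both lower genes belonged to the activating arm. Bmal1 (ENSMUSG00000055116, GRCm39 chromosome 7, 112806152 to 112914735), the obligate activator, had 38.3, 39.7 and 45.3 CPM as lowest, median and highest value at zt3 and 23.0, 27.7 and 33.0 CPM at zt15. Every night mouse lay below every day mouse, and Bmal1 fell by 0.56 on the log2 scale (SE 0.10, n = 6 per group, adjusted p = 3e-05). Npas2, a partner of BMAL1 in the forebrain, had 23.6, 25.0 and 32.5 CPM at zt3 and 16.8, 20.7 and 27.9 CPM at zt15, with 5 of 6 night mice below all day mice. It fell by 0.30 on the log2 scale (adjusted p = 0.03), a call that 9 of 26 other ways of running the test did not make. Clock, the alternative partner, showed a log2 fold change of 0.06 (adjusted p = 0.765), and Bmal2, the Bmal1 paralogue, one of -0.03 (adjusted p = 0.994).

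In the repressing arm 4 of 8 genes rose at night. Cry1 (ENSMUSG00000020038, chromosome 10, 84967560 to 85021252), the stronger of the cryptochrome repressors, had 19.1, 19.7 and 20.4 CPM at zt3 and 25.7, 27.0 and 28.5 CPM at zt15. All night mice were above all day mice, and the log2 fold change was 0.46 (SE 0.09, adjusted p = 5.5e-05). Ciart (ENSMUSG00000038550, chromosome 3, 95785815 to 95789991), a repressor of CLOCK and BMAL1 whose promoter shows 3 E-boxes above, had 9.21, 9.97 and 11.7 CPM by day and 12.1, 19.1 and 24.6 CPM at night. The groups again did not overlap, although the lowest night mouse, replicate 5, was close to the highest day mouse, and the log2 fold change was 0.88 (SE 0.15, adjusted p = 5.7e-06). Per3 had 11.4, 12.4 and 15.8 CPM by day and 15.3, 17.7 and 22.6 CPM at night, and rose by 0.50 on the log2 scale (SE 0.11, adjusted p = 0.00104), with 5 of 6 night mice above all day mice. Per1, which also responds to glucocorticoids and to neuronal activity, had 67.0, 73.1 and 93.8 CPM by day and 82.4, 90.5 and 139 CPM at night. Its log2 fold change of 0.35 had an adjusted p of 0.0487, only 1 night mouse was above all day mice, and 15 of 26 other ways of running the test did not call it. Per2 (log2 fold change 0.24, adjusted p = 0.273), Cry2 (0.01, adjusted p = 0.995), Bhlhe40 (-0.02, adjusted p = 0.968) and Bhlhe41 (0.22, adjusted p = 0.0591) did not pass the test.

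Among the nuclear receptors of the loop, both Rev-erb genes and Rorb rose at night. Nr1d1 (Rev-erb alpha) had 114, 132 and 139 CPM by day and 138, 170 and 206 CPM at night, and its log2 fold change was 0.42 (adjusted p = 0.00819). Nr1d2 (Rev-erb beta) had 42.5, 48.8 and 63.9 CPM by day and 51.6, 70.5 and 90.1 CPM at night, with a log2 fold change of 0.48 (adjusted p = 2e-04). For each of the 2 receptors 5 of 6 night mice were above all day mice. Rorb showed a larger change at a lower level, with a median of 6.45 CPM by day and 16.7 CPM at night (log2 fold change 1.04, adjusted p = 0.00418). Rora showed a log2 fold change of 0.06 (adjusted p = 0.941).

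Among the clock output factors all 3 PAR genes rose. Dbp (ENSMUSG00000059824, chromosome 7, 45354512 to 45359627), whose amplitude is among the largest of clock-driven genes in many tissues, had 54.3, 83.4 and 93.8 CPM by day and 91.8, 147 and 206 CPM at night. Only replicate 5 of the night mice fell within the day range, and the log2 fold change was 0.95 (SE 0.16, adjusted p = 8.9e-06). Hlf had a median of 103 CPM by day and 140 CPM at night (log2 fold change 0.43, adjusted p = 0.00277). Tef had a smaller change without overlap, with 321 to 342 CPM by day and 346 to 427 CPM at night (log2 fold change 0.17, adjusted p = 0.03, not called by 12 of 26 other ways of running the test). Nfil3, which competes with the PAR factors at D-boxes and runs opposite to Dbp in other tissues, showed a log2 fold change of -0.05 (adjusted p = 0.937). None of 6 genes for kinases and ubiquitin ligases that act on clock proteins was a DEG, with log2 fold changes of -0.10 for Csnk1d, -0.11 for Csnk1e and -0.14 for Btrc.

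**Figure D1:**
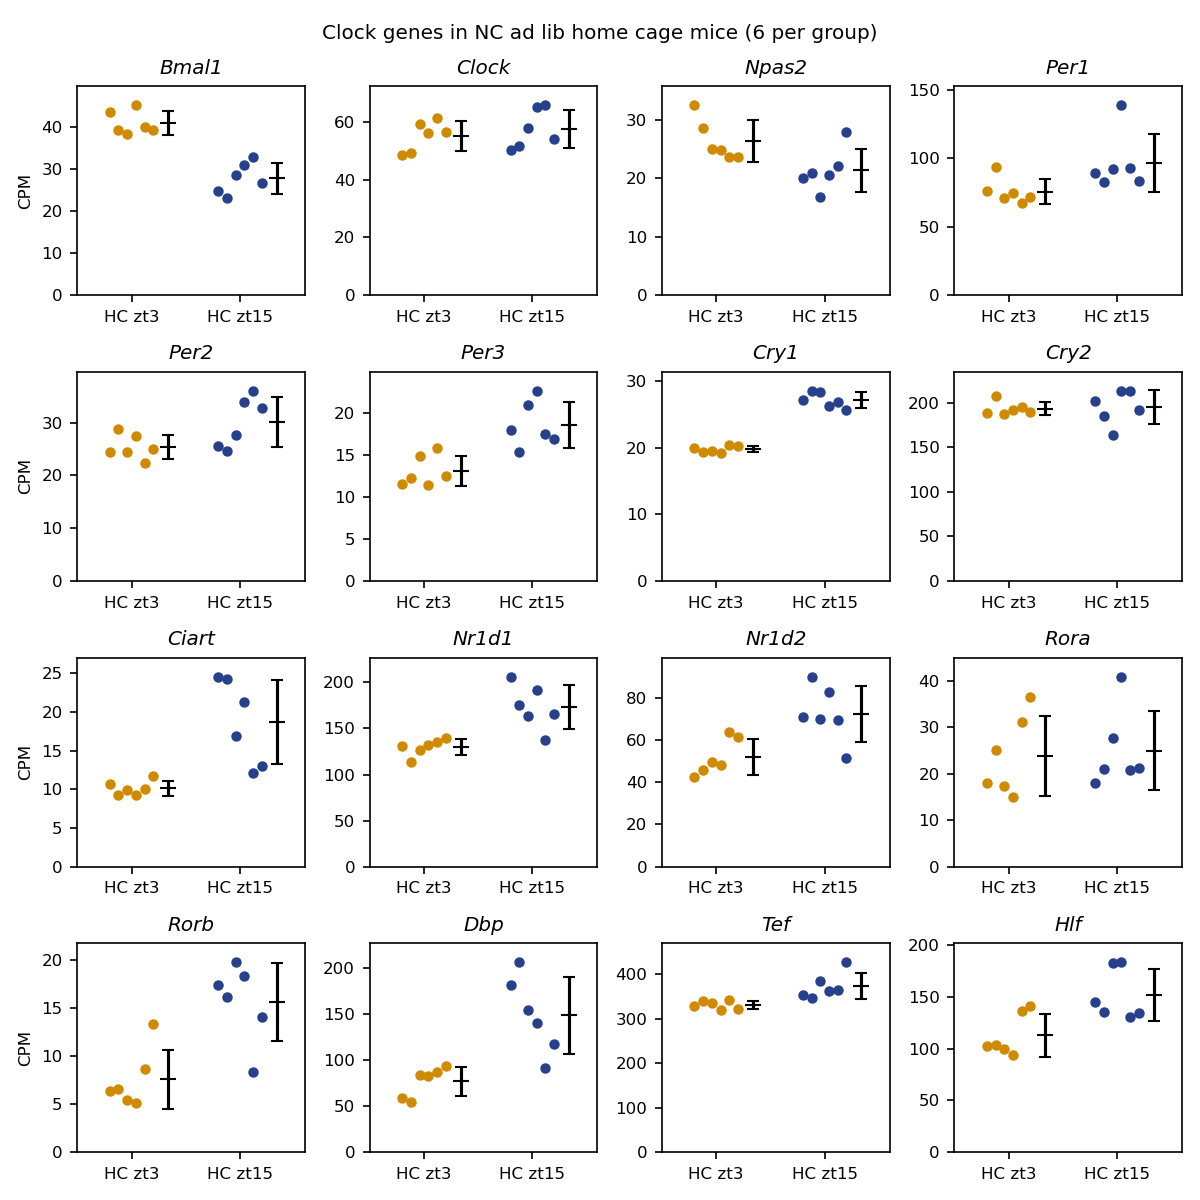
CPM (vertical axis, from 0) of 16 clock genes in each of the 6 HC zt3 and 6 HC zt15 mice of the NC ad lib group, 1 point per mouse, with the mean and SD of each group beside the points. The groups do not overlap for Bmal1, which is lower at zt15, nor for Cry1, Ciart and Tef, which are higher.

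Some of these clock gene calls were not made once the level of astrocyte messages was in the fit. With the mean log2 CPM of the 8 astrocyte markers as a covariate, 9 of the 21 clock genes stayed DEG: the log2 fold change of Nr1d1 was then 0.11 and that of Rorb 0.18, neither passing the test, whereas Bmal1, Cry1, Ciart, Per3, Nr1d2, Dbp, Hlf and Tef were among those that stayed called. Without HC zt15 replicate 5, and without the 2 night mice with the highest choroid plexus level, 12 of the 21 were called each time.

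The same clock genes were examined in the other comparisons of the 2 experiments. In HFS ad lib mice 11 of 21 (52.4%) were DEG between HC zt15 and HC zt3, 10 higher and 1 lower, against 9.9% of all protein-coding genes (6.03% higher, 3.86% lower). In HFS TRF mice 13 of 21 (61.9%) were, 11 higher and 2 lower, against 15.9% (9.03% higher, 6.88% lower). Bmal1 fell by 0.52 and by 0.60 on the log2 scale in these diets, Cry1 had log2 fold changes of 0.39 and 0.74, and Ciart of 0.74 and 0.98, all DEG. For Per3 the log2 fold change was 0.03 without restriction (HFS ad lib, adjusted p = 0.934) and 0.52 with it (HFS TRF, adjusted p = 0.00105). For Npas2 the values were -0.14 (adjusted p = 0.385) and -0.43 (adjusted p = 0.00208), and for Nr1d2 0.26 (adjusted p = 0.069) and 0.53 (adjusted p = 8e-05). These differences between diets did not pass a test of their own: the interaction of time with diet was significant for 0 of the 17601 genes for HFS ad lib against NC ad lib (edgeR, 1564 genes at an unadjusted p below 0.05, smallest adjusted p 0.404) and for 0 for HFS TRF against NC ad lib (891 genes, smallest adjusted p 0.584), while DESeq2 called 0 genes in the first and 1 in the second.

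Trained NC ad lib mice, from the same pair of experiments, showed fewer clock gene changes between night and day. Between ORM+12 h and ORM+1 h, 4 of the 21 clock genes (19%) were DEG, 1 higher and 3 lower at night, against 10.8% of all protein-coding genes (7.24% higher, 3.54% lower). Bmal1 had a log2 fold change of -0.07 there (adjusted p = 0.726), Ciart one of -0.09, Dbp one of 0.24 and Cry1 one of 0.12, none of them called, and Per1 fell by 0.64 (adjusted p = 6.1e-05). The day mice of this comparison had been trained 1 h before and the night mice 12 h before, so training and time differ together. The difference between the home cage and the trained comparison, tested after these values had been seen, was significant for 1921 of the 17601 genes (10.9%) and for 9 of the 21 clock genes (42.9%). Among those were Bmal1 (-0.48, adjusted p = 0.0247), Per1 (0.99, adjusted p = 0.000165), Per3 (0.60, adjusted p = 0.0124), Ciart (0.97, adjusted p = 0.00168), Nr1d2 (0.56, adjusted p = 0.00616), Rorb (1.68, adjusted p = 0.00255), Dbp (0.71, adjusted p = 0.0437) and Hlf (0.50, adjusted p = 0.0284), each value being the log2 fold change at home minus that after training. For Cry1 the difference was 0.34 (adjusted p = 0.0706). The summed astrocyte markers had group medians of 1368 CPM by day and 3262 CPM at night in the home cage and of 3326 and 2716 CPM after training, where the groups overlapped and 0 of the 8 markers were called. With the astrocyte covariate 128 genes in all and 1 of the 21 clock genes, Per1 (1.00, adjusted p = 0.00577), differed between the comparisons, and Bmal1 had a difference of -0.38 (adjusted p = 0.254). Without HC zt15 replicate 2, which had a high choroid plexus level, 1274 genes and 7 of the 21 clock genes differed, and Bmal1 (-0.44, adjusted p = 0.063) and Dbp (0.59, adjusted p = 0.118) no longer passed the test.

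**Figure D2:**
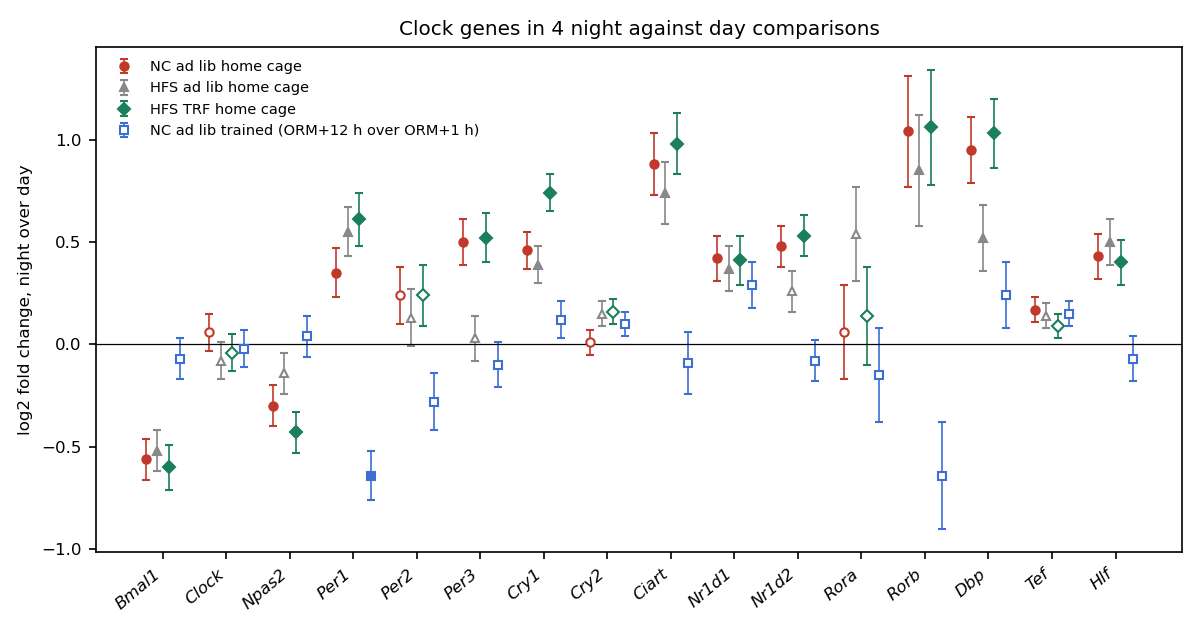
Log2 fold change, night over day, of 16 clock genes in home cage mice of each of the 3 diets and in trained NC ad lib mice, with bars of 1 SE and filled symbols where the adjusted p was below 0.05. Home cage values of Bmal1 lie between -0.60 and -0.52 and those of Ciart between 0.74 and 0.98, while the trained values of these genes are -0.07 and -0.09.

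Genes known from other work to be high at night or by day were also counted. Of 14 genes on the night-high list 8 were higher and 0 lower at night, against 8.08% higher among all genes. These were the clock genes Ciart, Dbp, Hlf, Per1, Per3 and Tef, already counted above, and Fkbp5 and Tsc22d3, counted again among the glucocorticoid targets below. Of 5 on the day-high list 2 were lower, against 3.32% lower among all genes, namely the clock genes Bmal1 and Npas2, also counted above. Heat shock genes on the night-high list and the cold-inducible genes on the day-high list, which follow body temperature, did not pass the test: Hsph1 showed a log2 fold change of -0.27 (adjusted p = 0.0975), Cirbp one of 0.07 (adjusted p = 0.837) and Rbm3 one of 0.23 (adjusted p = 0.406). Over 20 heat shock chaperones, 1 rose (Cryab, log2 fold change 0.72, adjusted p = 0.017) and 1 fell (Ahsa1, -0.22, adjusted p = 0.0335), with a median of -0.03 against 0.03 for all genes. That is a share near the background of 11.4%. Cryab was not called without day replicate 4 or night replicate 2, and Ahsa1 not by 12 of 26 other ways of running the test, and the list held 0 DEG with the astrocyte covariate and 4 without night replicate 5.

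Many targets of the glucocorticoid receptor were higher at night. Of 20 tested, 13 were higher, 0 lower and 7 did not pass the test, against 8.08% higher among all genes, and the median log2 fold change was 0.43. Tsc22d3 (GILZ, chromosome X, 139440091 to 139501408), an anti-inflammatory mediator of glucocorticoids, had 43.6, 49.9 and 52.3 CPM by day and 55.3, 81.8 and 101 CPM at night. All night mice were above all day mice, and the log2 fold change was 0.68 (SE 0.12, adjusted p = 3e-05). Hif3a, a subunit of the hypoxia-inducible factors, had medians of 0.495 and 3.08 CPM, without overlap (log2 fold change 2.42, adjusted p = 4.1e-05), and Mertk, a phagocytic receptor that astrocytes carry, 6.01 and 22.3 CPM (1.63, adjusted p = 7.1e-07). Mt1, a metal-binding protein, had medians of 138 and 311 CPM (1.12, adjusted p = 4.2e-05), with replicate 5 of the night mice inside the day range. Several of these 13 genes are also made by astrocytes, and the summed astrocyte markers differed between the groups as given above. Once the astrocyte covariate was in the fit 7 of the 20 were called, and without the 2 night mice with the highest choroid plexus level 9 were, and 11 were without night replicate 5. Among the receptors and enzymes that handle corticosterone, Nr3c2, the mineralocorticoid receptor of hippocampal neurons, had 243, 254 and 303 CPM by day and 153, 200 and 223 CPM at night. It fell by 0.45 on the log2 scale (SE 0.10, adjusted p = 0.00053), all night mice lying below all day mice. Hsd11b1, which regenerates active corticosterone, rose (0.72, adjusted p = 0.0175), and Nr3c1, the glucocorticoid receptor, showed a log2 fold change of -0.23 (adjusted p = 0.0809). With the astrocyte covariate the value of Hsd11b1 was -0.12.

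Immediate early genes, which neurons switch on within minutes of activity, rose in part. Of 25 tested, 6 were higher and 0 lower at night (Arc, Dusp1, Egr2, Gadd45b, Jun and Klf4), against 8.08% higher among all genes. Arc, a postsynaptic regulator of plasticity, had 125, 141 and 176 CPM by day and 166, 230 and 384 CPM at night, with 5 of 6 night mice above all day mice (log2 fold change 0.80, SE 0.20, adjusted p = 0.00262). Jun had medians of 178 and 249 CPM (0.41, adjusted p = 0.00223), and Egr2 of 1.79 and 3.30 CPM (1.28, adjusted p = 0.0157), a call lost without night replicate 4 or night replicate 6. In the trained mice, whose day group was killed 1 h after the task, 0 of the 25 were higher and 21 lower at night. In the fit with the astrocyte covariate 2 of the 25 were called, and without the 2 night mice with the highest choroid plexus level 4 were, and 8 were without night replicate 5. Endoplasmic reticulum chaperones showed 2 of 16 higher, Pdia4 (0.82, adjusted p = 0.0228) and Dnajc3 (0.59, adjusted p = 0.0348), each without overlap between the groups, a share near the background of 11.4%. Dnajc3 was not called by 11 and Pdia4 not by 4 of 26 other ways of running the test. Of the 16 genes, 0 were called without the 2 night mice with the highest choroid plexus level, 1 without night replicate 5 and 8 with the astrocyte covariate.

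**Figure D3:**
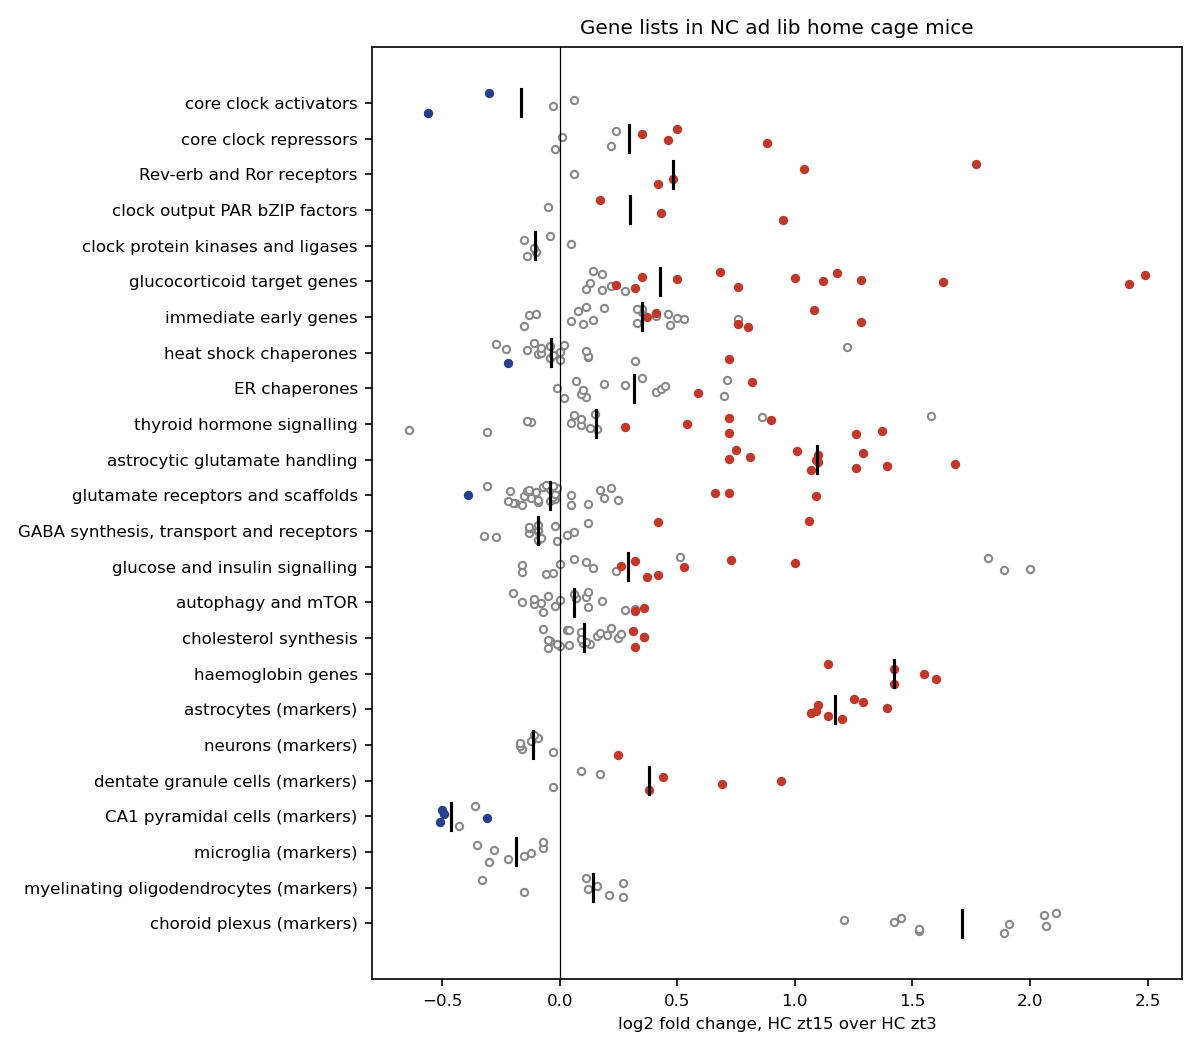
Log2 fold change, HC zt15 over HC zt3, of each gene of 24 lists in NC ad lib home cage mice, with filled points for DEG (red higher, blue lower), open points for genes that did not pass the test and a bar at the median of each list. The 8 astrocyte markers have a median of 1.17 and are all DEG, whereas the choroid plexus markers have a median of 1.71 with 0 DEG.

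Astrocyte genes were higher at night. All 8 astrocyte markers rose, with a median log2 fold change of 1.17, against 8.08% higher among all genes. Sox9, the astrocyte transcription factor, separated the groups fully (11.8 to 25.4 CPM by day, 27.3 to 66.6 CPM at night, log2 fold change 1.25, adjusted p = 0.00177). Gfap, the intermediate filament, had 139, 145 and 214 CPM by day and 182, 334 and 427 CPM at night (1.09, adjusted p = 0.00054). By contrast 1 of 8 pan-neuronal markers was higher, Map2, and 0 lower, and 0 of 8 markers each of interneurons, myelinating oligodendrocytes and microglia were called. These marker sets were named as cell type labels for the tissue, and the neuronal set summed to 9474 to 10293 CPM by day and 8266 to 10193 CPM at night, while endothelial markers summed to at most 15.5 CPM in any of the 12 mice.

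**Figure D4:**
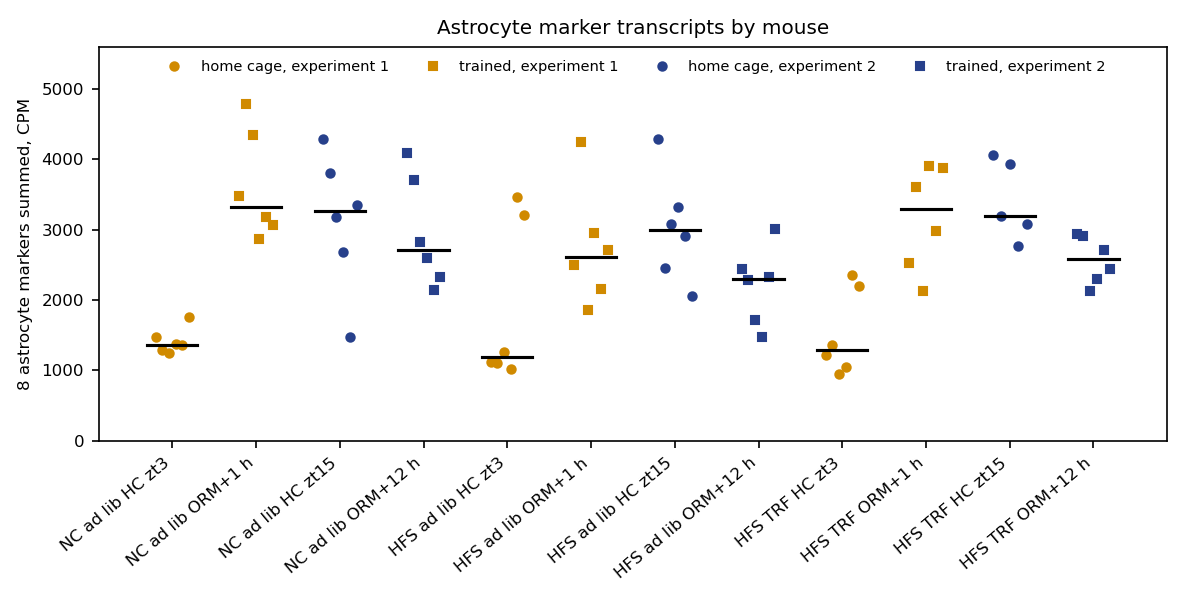
Summed CPM of 8 astrocyte markers in each of the 71 mice by diet and condition, with round points for home cage and square points for trained mice, colour for the experiment and a bar at the median of each group. The NC ad lib HC zt3 mice lie between 1251 and 1753 CPM and 1 HC zt15 mouse, at 1474 CPM, lies among them.

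The other diets and the trained mice were examined for the same level. The summed astrocyte markers had medians of 1189 and 2992 CPM by day and night in HFS ad lib home cage mice and of 1294 and 3194 CPM in HFS TRF mice. In HFS ad lib mice the groups overlapped, the day mice reaching 3468 CPM and 2 of 8 markers being DEG. In trained NC ad lib mice 0 of 8 markers were called, with 2872 to 4785 CPM by day and 2143 to 4099 CPM at night. The part of training, time and experiment in these levels was not tested.

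Genes with which astrocytes handle glutamate at synapses, listed together with channel and gap junction genes such as Kcnj10 and Gjb6, were also higher at night. Of 12 genes tested, 12 were higher, with a median log2 fold change of 1.10, against 8.08% higher among all genes. Of these, 4 (Aqp4, Gja1, Slc1a2 and Slc1a3) are astrocyte markers counted above, and the other 8 had a median of 1.05. Slc1a2, the main glutamate transporter, had 537, 561 and 659 CPM by day and 636, 1359 and 1634 CPM at night, and only replicate 5 of the night mice fell within the day range (log2 fold change 1.10, SE 0.21, adjusted p = 6.3e-05). Glul, glutamine synthetase, had 483, 551 and 721 CPM by day and 734, 1232 and 1646 CPM at night, without overlap (1.10, SE 0.23, adjusted p = 0.00023). Gjb6, a gap junction protein of astrocytes, had medians of 8.18 and 25.5 CPM, also without overlap (1.68, adjusted p = 1.7e-05). Of the 8 that are not part of the astrocyte covariate, 1 was called with it, Gjb6, while 4 were called without the 2 night mice with the highest choroid plexus level and 8 without night replicate 5. In HFS ad lib mice 3 of the 12 and in HFS TRF mice 11 of the 12 were higher at night, and in trained NC ad lib mice 0 were higher and 2 lower.

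Glutamate receptors and scaffolds were called at a share near the background of 11.4%. Of 33 receptor and scaffold genes, 3 were higher (Grm2, Grin2c and Grm3) and 1 lower (Grin3a). Grm2, a presynaptic inhibitory glutamate receptor, had 37.8, 44.7 and 47.1 CPM by day and 49.3, 64.3 and 93.3 CPM at night, without overlap (log2 fold change 0.66, SE 0.12, adjusted p = 2.3e-05). Grin3a, a modulatory NMDA receptor subunit, fell by 0.39 (adjusted p = 0.0331), a call that 10 of 26 other ways of running the test did not make. Grin2c and Grm3, which astrocytes also express, had log2 fold changes of 1.09 and 0.72 (adjusted p = 0.00326 and 0.0499), and of -0.02 and -0.35 with the astrocyte covariate. Both were already counted among the 12 astrocyte genes above. Apart from the fit with that covariate, 14 of 26 other ways of running the test did not call Grm3, among them leaving out any single day mouse. Without the 2 night mice with the highest choroid plexus level 2 of the 33 were called. Of 17 genes of the inhibitory transmitter GABA, 2 rose and 0 fell, a share also near 11.4%, and the higher genes included the astrocytic transporter Slc6a11 (1.06, adjusted p = 0.0012). Its value was -0.01 with the astrocyte covariate, where 0 of the 17 were called. Among 17 genes for receptors of adenosine and of wake and sleep signals and for the adenosine kinase Adk, 2 rose, Adora2b (1.76, adjusted p = 0.00281) and Adra1a (0.66, adjusted p = 0.0139), both below 6 CPM in every mouse, and again a share near 11.4%. Neither was called with the astrocyte covariate or without the 2 night mice with the highest choroid plexus level, each of which left 0 of the 17 called, Adra1a was not called without night replicate 3, and 4 were called without night replicate 5.

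Thyroid hormone signalling contributed 7 of 20 genes that were higher and 0 that were lower at night, against 8.08% higher among all genes. Dio2 (chromosome 12, 90691322 to 90705819), the astrocytic deiodinase that makes active T3 from T4, had 12.0, 13.1 and 19.3 CPM by day and 16.2, 39.8 and 45.5 CPM at night. Replicate 5 was the only night mouse within the day range (log2 fold change 1.37, SE 0.24, adjusted p = 1.7e-05). Dio3, the inactivating deiodinase of neurons, showed a log2 fold change of -0.64 (adjusted p = 0.279). Notch1, a receptor of cell fate signalling, had medians of 6.23 and 12.4 CPM (0.90, adjusted p = 0.00052), whereas Mapk3, a kinase present in all cells, moved less but without overlap, from 133 to 165 CPM by day to 166 to 208 CPM at night (0.28, adjusted p = 0.00073). With the astrocyte covariate Dio2 stayed a DEG with a log2 fold change of 0.39, Notch1 did not, and 2 of the 20 genes were called in all.

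Markers of dentate granule cells and of CA1 pyramidal cells that were called moved in opposite directions. Of 7 dentate granule cell markers, 4 were higher and 0 lower at night, against 8.08% higher and 3.32% lower among all genes. The sum of the 7 markers overlapped between the groups, with 385 to 471 CPM by day and 426 to 584 CPM at night. Pdzd2 had 26.4, 30.9 and 43.6 CPM by day and 55.3, 64.2 and 68.8 CPM at night (log2 fold change 0.94, SE 0.15, adjusted p = 1.6e-06), and Dsp 18.5 to 23.9 CPM by day and 28.3 to 35.9 CPM at night (0.69, adjusted p = 0.00033), both without overlap. Prox1, which specifies granule cells, rose by 0.44 on the log2 scale (adjusted p = 0.00703). Of 6 CA1 pyramidal cell markers, 0 were higher and 4 lower, among them Fibcd1 (-0.51, adjusted p = 0.00592), Pou3f1 (-0.49, adjusted p = 0.00208) and Mpped1 (-0.31, adjusted p = 0.00795). The sum of the 6 CA1 markers was 796 to 1144 CPM by day and 619 to 732 CPM at night, without overlap. The astrocyte covariate left 1 of the 6 CA1 markers and 3 of the 7 granule cell markers called. In trained NC ad lib mice 6 of the 7 granule cell markers were higher and 1 of the 6 CA1 markers was lower at night, in HFS ad lib mice 1 and 3, and in HFS TRF mice 1 and 5. Markers of CA3 and CA2 showed 1 higher (Amigo2) and 1 lower (Rgs14) of 7, and those of the neighbouring thalamus and striatum showed 0 of 8 each.

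Genes of insulin and glucose handling were higher at night in 7 of 20 cases and lower in 0, against 8.08% higher among all genes. Foxo3, a transcription factor that insulin signalling restrains, had 62.5, 66.4 and 71.8 CPM by day and 77.1, 89.7 and 99.6 CPM at night (log2 fold change 0.42, SE 0.06, adjusted p = 2.9e-07). Irs1, the adaptor of the insulin receptor, had 14.5, 15.4 and 18.1 CPM by day and 20.2, 23.1 and 24.2 CPM at night (0.53, SE 0.08, adjusted p = 1e-06). Both genes separated the groups fully, were also DEG in the same direction in HFS ad lib, HFS TRF and trained mice, and were called in all 26 other ways of running the test, whereas with the astrocyte covariate 4 of the 20 genes of this list were called. Slc2a1, the glucose transporter of the blood-brain barrier, rose by 0.73 (adjusted p = 0.00278), and Pik3r1, the regulatory subunit of phosphoinositide 3-kinase, by 0.32 (adjusted p = 0.00317). Neither of these 2 calls was made with the astrocyte covariate or without the 2 night mice with the highest choroid plexus level, and 4 of the 20 genes were called without those mice. Of 19 autophagy and mTOR genes 2 rose, Eif4ebp2 (0.36, adjusted p = 0.00883), a brake on translation, and Ddit4 (0.32, adjusted p = 0.0331), a stress-induced inhibitor of mTOR, a share near the background of 11.4%. The call of Ddit4 was not made by 12 of 26 other ways of running the test, with log2 fold changes down to 0.04, and that of Eif4ebp2 was lost without night replicate 6. Of 24 cholesterol synthesis genes 3 rose, Cyp51, Lss and Sc5d, by 0.31 to 0.36, a share close to that background, with 0 of the 24 called either with the astrocyte covariate or without the 2 night mice with the highest choroid plexus level.

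Cytosolic ribosomal protein genes were mostly higher at night. Of 77 tested, 46 were higher and 3 lower at night, with a median log2 fold change of 0.22, and for 34 of them all night mice lay above all day mice, against 8.08% higher and 2.36% wholly above among all genes. Rps27 had 43.4 to 50.2 CPM by day and 76.8 to 114 CPM at night (log2 fold change 0.98, SE 0.10, adjusted p = 6.4e-13), and Rps29 80.2 to 96.4 CPM by day and 117 to 175 CPM at night (0.69, adjusted p = 4e-08). Rpl17 (-0.74, adjusted p = 4.1e-09), Rpl23a (-0.58, adjusted p = 3.3e-07) and Rpl7a (-0.22, adjusted p = 0.029) went the other way. Of the 77, 21 were called with the astrocyte covariate, and without the 2 night mice with the highest choroid plexus level 28 were, and 54 were without night replicate 5. The number of higher genes was 62 in HFS ad lib, 63 in HFS TRF and 24 in trained mice. Ribosomal protein genes have many near-identical processed copies in the genome, so reads can be split between them and their values are uncertain. Of 80 nuclear subunits of the respiratory chain and ATP synthase, 5 were higher and 1 lower at night, Uqcrc2 (-0.25, adjusted p = 0.00643). That is a share below the background of 11.4%, and without the 2 night mice with the highest choroid plexus level 2 of the 80 were called. Of 13 mitochondrially encoded genes 4 were lower, against 3.32% lower among all genes. These were mt-Co2, mt-Atp6, mt-Co3 and mt-Nd4l, each below 1 CPM in all 12 mice. The call of mt-Nd4l was not made by 13 of 26 other ways of running the test. The 13 genes as a set did not fall: their median log2 fold change was 0.58, with 8 values above 0 and 5 below, and 0 were called higher. Their summed level overlapped between the groups, with 215 to 397 CPM by day and 233 to 747 CPM at night. All 5 haemoglobin-related genes, which are made in red blood cells and their precursors, were higher at night, against 8.08% higher among all genes. An example is Hbb-bs, with 74.0 to 108 CPM by day and 126 to 429 CPM at night (1.42, SE 0.22, adjusted p = 1.7e-06). The haemoglobin-related genes were higher in 5 of 5 cases in HFS TRF, 4 of 5 in trained and 0 of 5 in HFS ad lib mice.

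The smallest adjusted p-values included several annotated retrotransposed copies of other genes. Of the 6 lower genes with the smallest adjusted p, 3 were annotated retrotransposed copies: Gapdhrt (chromosome 14, 11113008 to 11189060) had 20.5 to 22.8 CPM by day and 2.58 to 2.94 CPM at night (log2 fold change -3.02, SE 0.11, adjusted p = 5.5e-35), Ube2srt 7.98 to 10.4 and 0.317 to 0.849 CPM (-4.02, adjusted p = 5.8e-27), and Gapdhrt2 11.5 to 14.1 and 1.79 to 2.75 CPM (-2.47, adjusted p = 4.8e-27). The others were AK157302, Adrm1b and Gm8797. These values hardly differed between comparisons: the log2 fold change of Gapdhrt was -2.83 in HFS ad lib, -3.02 in HFS TRF and -2.89 in trained mice. Summed with its parent gene, Ube2srt showed no separation (Ube2s and its copy, 42.4 to 46.4 CPM by day and 40.7 to 45.5 CPM at night), while Ube2s alone had 33.7 to 36.2 and 40.3 to 44.9 CPM. The values of such copies and their parents are uncertain, since counting of unique reads can split reads between near-identical sequences.

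Of the 6 higher genes with the smallest adjusted p, 3 are neither annotated retrotransposed copies nor ribosomal protein genes. Sdc4 (chromosome 2, 164266025 to 164285807), a heparan sulfate proteoglycan of the cell surface, had 4.87, 7.03 and 11.1 CPM by day and 13.2, 37.9 and 48.4 CPM at night (log2 fold change 2.14, SE 0.29, adjusted p = 3.2e-08). Kirrel2 (chromosome 7, 30146958 to 30157131), an adhesion molecule of the nephrin family, had 3.14, 3.56 and 4.17 CPM by day and 5.15, 13.0 and 16.9 CPM at night (1.75, SE 0.22, adjusted p = 3.3e-09). Zhx3 (chromosome 2, 160590628 to 160714918), a zinc finger and homeobox repressor, had 65.8, 71.1 and 75.1 CPM by day and 88.0, 94.1 and 101 CPM at night (0.41, SE 0.05, adjusted p = 6.9e-09). None of the 3 overlapped between the groups. In trained mice Zhx3 rose as well (0.32, adjusted p = 4.7e-06), while Sdc4 (-0.30, adjusted p = 0.527) and Kirrel2 (0.27, adjusted p = 0.46) did not pass the test.

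**Figure D5:**
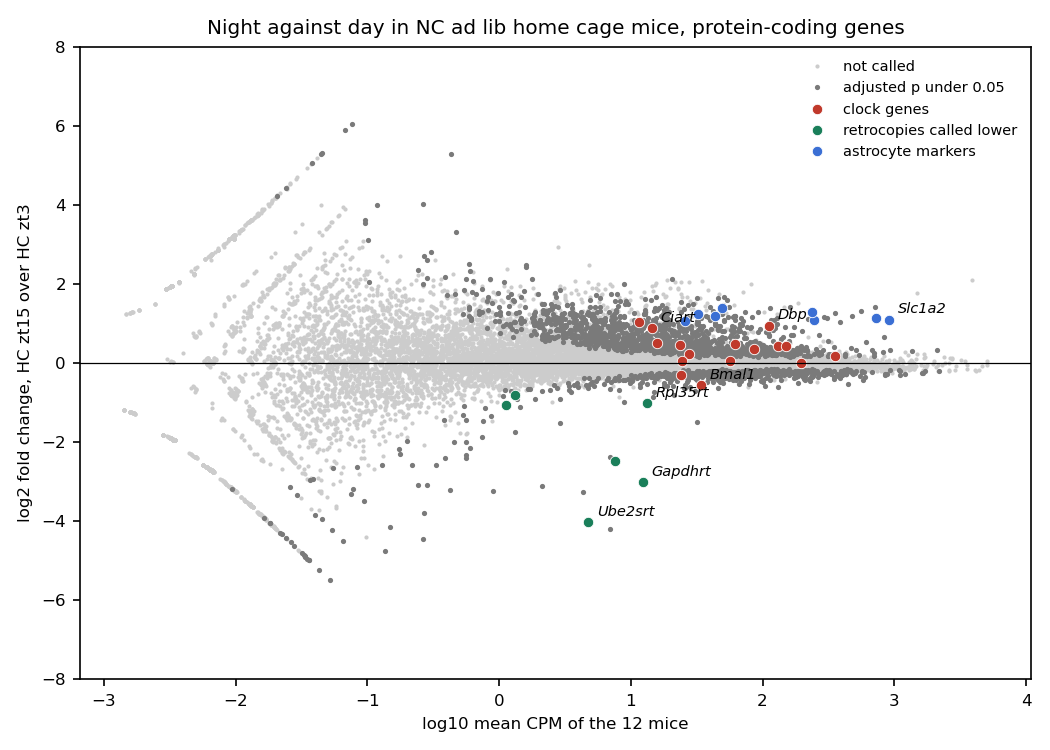
Log2 fold change, HC zt15 over HC zt3, against the log10 of the mean CPM of the 12 mice for the protein-coding genes, with DEG in dark grey and clock genes, astrocyte markers and retrotransposed copies called lower in colour. Gapdhrt (-3.02) and Ube2srt (-4.02) lie far below genes of like level.

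Over all genes, 730 of the 2008 DEG were also DEG in the same direction in HFS ad lib mice, which is 36.4% of the NC ad lib list and 41.9% of the HFS ad lib list of 1742. With HFS TRF mice 1282 were shared, 63.8% of the NC ad lib list and 45.8% of the HFS TRF list of 2800. In all 3 diets 629 genes were called in the same direction, 413 higher and 216 lower, among them Bmal1, Cry1, Ciart, Dbp, Nr1d1, Rorb, Dio2, Slc1a2, Glul, Arc, Tsc22d3, Foxo3 and Irs1. The diets do not share mice, but they share the 2 experiments. With trained NC ad lib mice 261 genes were shared in the same direction (13% of the home cage list and 13.8% of the list of 1898), and 139 were called in opposite directions. All 4 comparisons called 146 genes in the same direction, 92 higher and 54 lower, which included Foxo3, Irs1, Grm2, Zhx3, ribosomal protein genes and the retrotransposed copies named above but none of the 21 clock genes. Of the 2008 home cage DEG, 944 (47%) differed significantly between the home cage and the trained comparison.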

How the data were processed

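Counts per gene were deposited by the authors as 1 table of 57010 genes for the 71 mice analysed here, fewer than the study counts in its methods. Per the labels and the study's methods, reads were trimmed (Trim Galore 0.6.7 with cutadapt 3.4), aligned to GRCm39 with HISAT2 2.2.0 and counted with featureCounts of Subread 2.0.3 from uniquely mapped reads. The kit was stranded, and the strand setting of the counting is not given in the sources used here, so reads of a gene and its antisense partner may not be told apart. The labels name mm9 beside GRCm39, with no role given for either. The counts were not normalized.

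Genes with at least 10 counts over the 71 libraries (30141) were fitted with edgeR 4.0.16 in R 4.3.3, with TMM normalization and 12 groups of diet and condition in 1 quasi-likelihood model. P-values were adjusted by Benjamini-Hochberg over all genes tested, and an adjusted p below 0.05 called a DEG. Fold changes are on the log2 scale, and CPM use the TMM-scaled library size. GENCODE vM39 matched 56310 gene identifiers and gave the biotypes, and 17601 tested genes were protein-coding. GENCODE coordinates are on GRCm39 and RefSeq promoters on GRCm38.p6. Groups came from the sample labels. No time of day by batch term could be fitted, because each experiment held 1 time of day. Nothing in the labels ties mice to cages, so p-values measure the spread between mice as labelled. No 2 libraries were duplicates.

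Genes named are the clock genes, the 6 higher and 6 lower genes with the smallest adjusted p, and up to 4 genes with the smallest adjusted p of each other list. Marker genes, list members counted and other targets outside this rule are named as examples, chosen after their values were seen. A few genes that fall under the rule are not reported here. The members and the lists were chosen with earlier results of these data known. Alternatives were DESeq2 1.42.0, other normalizations, filters and sets of libraries, covariates for choroid plexus and astrocyte markers, and each of the 12 mice left out in turn. The fitting was tested on simulated data.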

Additional observations from a re-analysis of the deposited data

Results flagged for a closer look

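Of 258 sets of 6 values of the named genes and marker sums, 19 held a mouse far from the other 5 by Dixon's criterion, where chance alone gives about 1 in 20, or 13. Among clock genes this was Per1, at 93.8 CPM in HC zt3 replicate 2 (the others 67.0 to 76.4 CPM) and at 139 CPM in HC zt15 replicate 4 (the others 82.4 to 93.1 CPM). HC zt15 replicate 5 had the low value of Dio2, 16.2 CPM against 34.9 to 45.5 CPM in the other night mice. HC zt15 replicate 2 had the high values of Cryab (112 CPM), H2bc4 (76.2 CPM), mt-Atp6 (0.293 CPM), Hsd11b2 (0.0783 CPM) and H2ac20 (0.0196 CPM). HC zt3 replicate 6 had the high values of Grin2c (13.9 CPM) and Slc6a11 (43.2 CPM), and HC zt15 replicate 6 those of Gabra3 (36.2 CPM) and mt-Nd4l (0.0443 CPM). Single flags fell on Rps27 in HC zt3 replicate 1 (50.2 CPM, high), Egr2 in HC zt3 replicate 2 (3.76 CPM, high), B2m in HC zt3 replicate 4 (25.3 CPM, high) and Uqcrc2 in HC zt15 replicate 3 (181 CPM, low). Among the marker sums, CA1 markers were high in HC zt3 replicate 4 (1144 CPM), CA3 and CA2 markers low in HC zt3 replicate 1 (695 CPM) and thalamus markers high in HC zt15 replicate 4 (328 CPM).

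The night against day difference of the home cage differed from that of trained mice, by a test of the difference itself, for 1921 protein-coding genes. Clock genes among them included Bmal1 (log2 difference -0.48), Per1 (0.99), Per3 (0.60), Ciart (0.97), Nr1d2 (0.56), Rorb (1.68), Dbp (0.71) and Hlf (0.50).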

How the results depend on the processing

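Every alternative kept the direction of the 82 named genes that were DEG, except that with the astrocyte covariate Hsd11b1 (-0.12), Grin2c (-0.02), Grm3 (-0.35) and Slc6a11 (-0.01) changed sign, and 42 of the 82 were called under all 26 alternatives. The count of 2008 DEG became 791 with the astrocyte covariate (560 higher, 231 lower) and 1089 without the 2 night mice with the highest Ttr, replicates 2 and 6 (737 higher, 352 lower), both chosen after seeing the data. The count of lower genes, 585, was 364 in a fit of the 2 groups by themselves, 886 with protein-coding genes alone, 378 with a fold above 1.2 required in addition, 293 with the replicate block and only the groups compared, and 325 with the choroid plexus covariate and only the groups compared. Leaving out 1 mouse at a time gave from 1539 DEG (day replicate 4 left out) up to 2186 DEG (night replicate 4 left out), and 1027 genes (51.1%) were called in all 12 of these fits. DESeq2 called 2395 DEG, and 1 gene in the interaction of time with diet for HFS TRF. The difference between home cage and trained mice, 1921 genes, was 976 with the choroid plexus covariate, 128 with the astrocyte covariate, 969 without the 2 night mice with the highest Ttr, and 1274 (without HC zt15 replicate 2) to 2263 (without HC zt15 replicate 4) with 1 mouse left out. The cause of these shifts was not tested.

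With the replicate number as a block 2134 DEG were called, 1965 of them shared with the 2008 and 43 lost. The numbers did not pair the mice: correlations of same-numbered mice ran from -0.602 to 0.501, 4 of 6 were above 0.1, and 0 mice correlated best with their own number.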

Other observations

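Of the 12540 tested genes that were not protein-coding or not matched to the annotation, 1526 (12.2%) were DEG between HC zt15 and HC zt3, 139 higher and 1387 lower at night, whereas 1423 of the 2008 protein-coding DEG were higher.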
